A study of Mus musculus with 2 samples.

Results

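The 9 genes described here encode ligands and receptors through which tumour-infiltrating leukocytes restrain or support T cells: Cd274, Pdcd1lg2, Cd80, Cd86, Cd40, Vsir, Lgals9, Cd200 and Slamf7. They were chosen by symbol, and all 9 were among the 12584 genes of the deposited count matrix. Their levels were read in every population of sorted leukocytes from 2 mouse melanomas.

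T cells need a signal from costimulatory molecules in addition to antigen, and inhibitory ligands on the same antigen-presenting cells can oppose it. CD80 and CD86 (B7-1 and B7-2) bind CD28, which activates T cells, and CTLA-4, which restrains them, while PD-L1 (Cd274) and PD-L2 (Pdcd1lg2) bind the inhibitory receptor PD-1. Interferon-gamma from T cells and NK cells is a known inducer of PD-L1 in myeloid cells, and dendritic cells raise both costimulatory and inhibitory ligands when they mature. CD40, a receptor of the TNF receptor family on antigen-presenting cells, receives help from T cells that carry CD40 ligand and signals to NF-kB. VISTA (Vsir) and galectin-9 (Lgals9) are inhibitory ligands abundant in myeloid cells, CD200 restrains myeloid cells that carry its receptor, and SLAMF7 is a self-binding receptor of the SLAM family found on NK cells and activated myeloid cells.

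The data were single-cell RNA-sequencing libraries of live CD45+ cells, the leukocytes, from subcutaneous tumours of YUMM3.3, a mouse melanoma line with Braf V600E and loss of Cdkn2a, grown in C57BL/6 mice. The NTT group was 1 tumour of the line that had never met targeted therapy, and the RTT group was 1 tumour of its derivative made resistant to targeted therapy by exposure to BRAF inhibitor in culture. Both tumours were taken on day 12, and the methods give the age of the mice only as a range for all experiments. With 1 library in each group, effects of the tumour line cannot be told apart from those of the mouse, the sort or the library, no test was possible, and the intervals given are 95% counting intervals that leave out the spread between mice. The sort removed tumour cells, whose own levels were not measured.

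In all 2975 NTT cells with 19634099 unique molecular identifiers (UMIs, each marking 1 captured RNA molecule) and 4840 RTT cells with 44712071 UMIs were read. Levels are given as CPM, a gene's UMIs summed over the cells of a population and scaled to a common total of UMIs. The authors had named 16 populations, of which 8 held at least 50 cells in both libraries. The libraries shared 7 cell barcodes. Monocytes made up 54.3% of NTT and 4.11% of RTT cells, macrophages 19.6% and 82.8%, and dendritic cells 16.5% and 10.9%. The melanoma list was represented by 1 of its 4 genes, at no more than 3.80 CPM in any NTT and 2.78 CPM in any RTT population. Cells named NK_cells carried the T cell gene Cd3e at 843 CPM in NTT and 580.4 CPM in RTT tumours, so the name covers T cells too. The 6 macrophage markers (C1qa, C1qb, C1qc, Adgre1, Mrc1 and Apoe) were above 0 in every population with at least 20 cells. Their summed level in Infl_Mono, the inflammatory monocytes, was 7586 CPM in NTT and 31846 CPM in RTT tumours. The monocyte markers, 3 of 4 of them in the matrix, summed to 12504 CPM in NTT and 3982 CPM in RTT Infl_Mono.

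The first question was which leukocytes carried each member. The mature dendritic cells named DC3, which expressed their defining chemokine receptor gene Ccr7 at 2730 CPM in NTT and 2462 CPM in RTT tumours, had the highest RTT level of 7 of the 9 members (all but Vsir and Lgals9) among populations with at least 50 cells. Monocytes and macrophages instead led for Vsir and Lgals9, which had their lowest NTT levels in DC3. The heat map of levels by population shows these blocks.

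**Figure D1:**
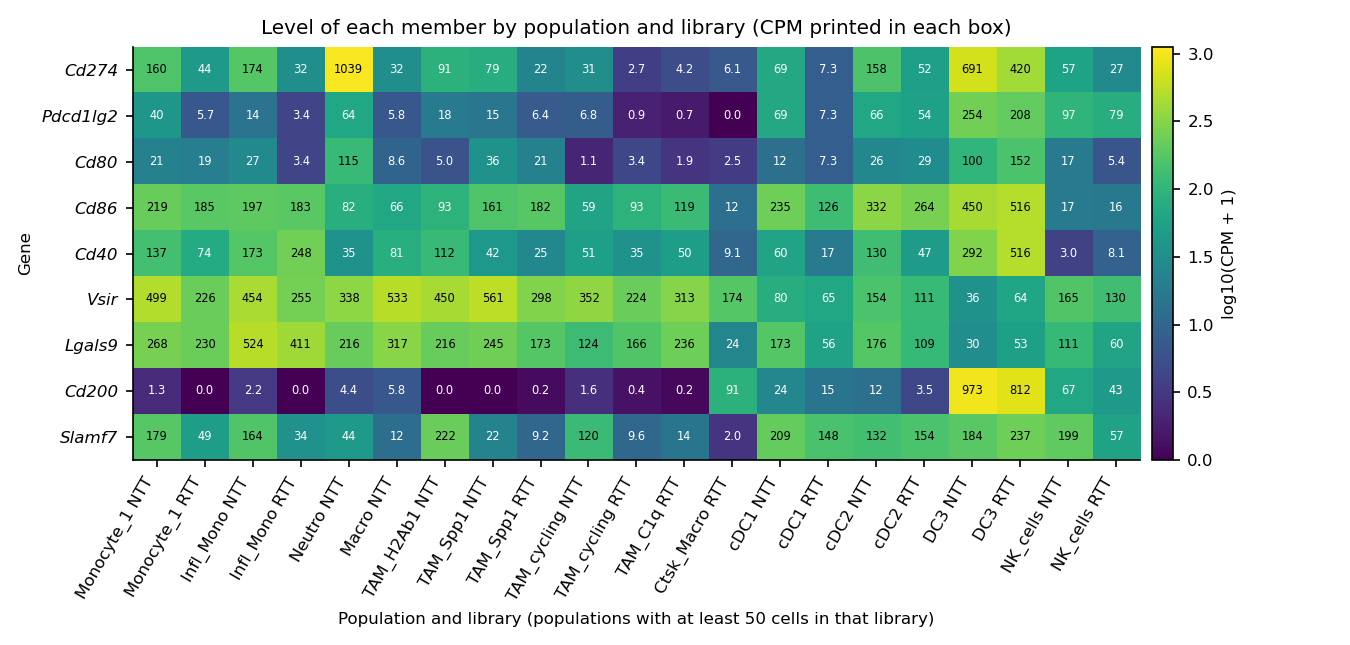
Level of each member (rows) in each population and library with at least 50 cells (columns), coloured by log10(CPM + 1) with the CPM printed in each box. Levels are to be read along a row; Cd200 was at 973 CPM in NTT and 812 CPM in RTT DC3, and Vsir at only 35.5 and 63.6 CPM in the same cells.

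Cd274, the gene of PD-L1, was highest in NTT neutrophils (Neutro) at 1039 CPM (interval 948 to 1138), followed by NTT DC3 at 691 CPM (634 to 752). Next came NTT Infl_Mono, Monocyte_1 and cDC2 cells at 174, 160.4 and 158 CPM, 3 neighbours whose intervals overlapped. Tumour-associated macrophages were lower, with 90.7 CPM in NTT TAM_H2Ab1, 78.8 CPM in NTT TAM_Spp1 and 31.1 CPM in NTT TAM_cycling. In the RTT tumour the largest population, TAM_C1q with 2001 cells, carried Cd274 at 4.22 CPM (3.33 to 5.28). RTT DC3 stood apart at 420.3 CPM (348 to 503), and the next RTT population, cDC2, was at 52.4 CPM. The 29 RTT neutrophils gave 9 UMIs of Cd274 and were too few for a comparison.

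Pdcd1lg2, the gene of PD-L2, was highest in dendritic and lymphoid cells. DC3 led in both libraries, with 253.6 CPM (219.7 to 291) in NTT and 208 CPM (159 to 269) in RTT tumours. NK_cells came next, with 97.2 CPM in NTT and 78.7 CPM in RTT tumours, and cDC2 cells had 66.2 and 54.4 CPM. In cDC1 cells the level was 68.8 CPM in NTT and 7.26 CPM in RTT tumours, the latter from 3 UMIs. RTT macrophages were low. TAM_Spp1 cells had 28 UMIs of Pdcd1lg2 (6.42 CPM), the 2001 TAM_C1q cells had 12 (0.658 CPM), and the 280 Ctsk_Macro cells had none, which allows up to 0.737 CPM (3 UMIs).

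The B7 genes differed in breadth. Cd80 was highest in NTT neutrophils (115 CPM, 85.7 to 150.5) and NTT DC3 (100.2 CPM, 79.3 to 125), whose intervals overlapped, and in RTT DC3 (152 CPM, 109.9 to 205). In the other populations with at least 50 cells Cd80 stayed at or below 36.0 CPM. Cd86 was spread over all myeloid cells, from 450.1 CPM in NTT DC3 and 332 CPM in NTT cDC2 cells to 59.0 CPM in NTT TAM_cycling. NK_cells, taken as a low reference but not shown to lack the gene, had Cd86 at 17.3 CPM in NTT and 16.3 CPM in RTT tumours. They held macrophage markers at a summed 342 CPM in NTT and 3241 CPM in RTT tumours. RTT Ctsk_Macro cells were as low in Cd86, at 12.0 CPM.

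Cd40 was highest in DC3 and in the cells named Infl_Mono, many of which carried C1qa in the RTT tumour. DC3 had NTT Cd40 at 292 CPM (255 to 332) and RTT Cd40 at 516 CPM (435 to 606), and Infl_Mono had 173 CPM in NTT (159 to 188) and 248 CPM in RTT tumours (209 to 292). In each library the intervals of these populations stood apart from each other and from the next population. NK_cells had 4 NTT and 3 RTT UMIs of Cd40.

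Vsir, the gene of VISTA, had its highest NTT levels in TAM_Spp1 (561 CPM), Macro (533 CPM) and Monocyte_1 cells (499 CPM), neighbours with overlapping intervals, and its highest RTT level in TAM_C1q (313 CPM, 305 to 321), whose interval overlapped that of RTT TAM_Spp1. Lgals9 led in Infl_Mono in both libraries, with 524 CPM (499 to 549.9) in NTT and 411 CPM (361 to 466) in RTT tumours. DC3 had little of either gene in the NTT tumour, with Lgals9 at 30.4 CPM.

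Cd200 was the most restricted member. DC3 held 83.6% of its NTT UMIs, and NK_cells another 9.71%. In the RTT tumour DC3 still had the highest level, 812 CPM (711 to 924), but 56.6% of the gene's UMIs lay in Ctsk_Macro, a population of 280 RTT and 0 NTT cells with the osteoclast gene Ctsk at 16143 CPM. Ctsk_Macro cells carried Cd200 at 91.2 CPM (82.2 to 101), and a UMI of it was found in 129 of the 280 cells. The 2001 TAM_C1q cells had 3 UMIs of Cd200 in all.

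Slamf7 was spread over NTT populations of different lineages. TAM_H2Ab1 (222 CPM), cDC1 (209 CPM, 176 to 248), NK_cells (199 CPM), DC3 (184 CPM) and Monocyte_1 (179 CPM) followed each other with overlapping intervals. In the RTT tumour the dendritic cells came first, with DC3, cDC2 and cDC1 cells at 237, 154 and 148 CPM of Slamf7. RTT NK_cells and monocyte populations lay between 34.0 and 57.0 CPM, and TAM_C1q, TAM_cycling and TAM_Spp1 had 14.1, 9.60 and 9.18 CPM.

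The second question was how RTT leukocytes differed from NTT leukocytes. Over all cells each member had a lower level in the RTT library, with PD-L1, PD-L2 and Slamf7 differing most and Cd86, Vsir and Lgals9 least. A member was counted as lower or higher when its CPM differed by at least 2-fold with at least 100 UMIs over both libraries. By that rule 6 of 9 members were lower and 0 were higher, where 11.6% of 10258 genes were lower and 9.09% higher. The median log2 ratio of RTT over NTT was -1.67 over the members and 0.08 over all genes tested.

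Cd274 was at 163 CPM (158 to 169) in the NTT and 12.5 CPM (11.5 to 13.6) in the RTT library, from 3208 and 560 UMIs, a log2 ratio of -3.71 (-3.84 to -3.58). Pdcd1lg2 was at 43.8 and 6.58 CPM, a log2 ratio of -2.74 (-2.93 to -2.54). Slamf7 was at 154 and 24.4 CPM, a log2 ratio of -2.66 (-2.76 to -2.56). These 3 genes differed by 13.0-fold, 6.66-fold and 6.32-fold. After each cell was thinned to 2000 UMIs, the log2 ratio was -3.12 for Cd274 and -2.0 for Pdcd1lg2. Cd80 (23.5 and 7.09 CPM, log2 ratio -1.73), Cd200 (46.7 and 14.6 CPM, -1.67) and Cd40 (114 and 45.1 CPM, -1.34) were lower by 2.54-fold to 3.31-fold. The remaining members stayed under 2-fold: Vsir was at 385 and 253 CPM (log2 ratio -0.61), Cd86 at 178 and 119 CPM (-0.58), and Lgals9 at 255 and 180.3 CPM (-0.50). A single cell held no more than 6.12% of the UMIs of any member in either library, the most being 18 RTT UMIs of Pdcd1lg2. Within a population a single cell could weigh more, as with 30.5% of the 59 Pdcd1lg2 UMIs of RTT DC3.

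**Figure D2:**
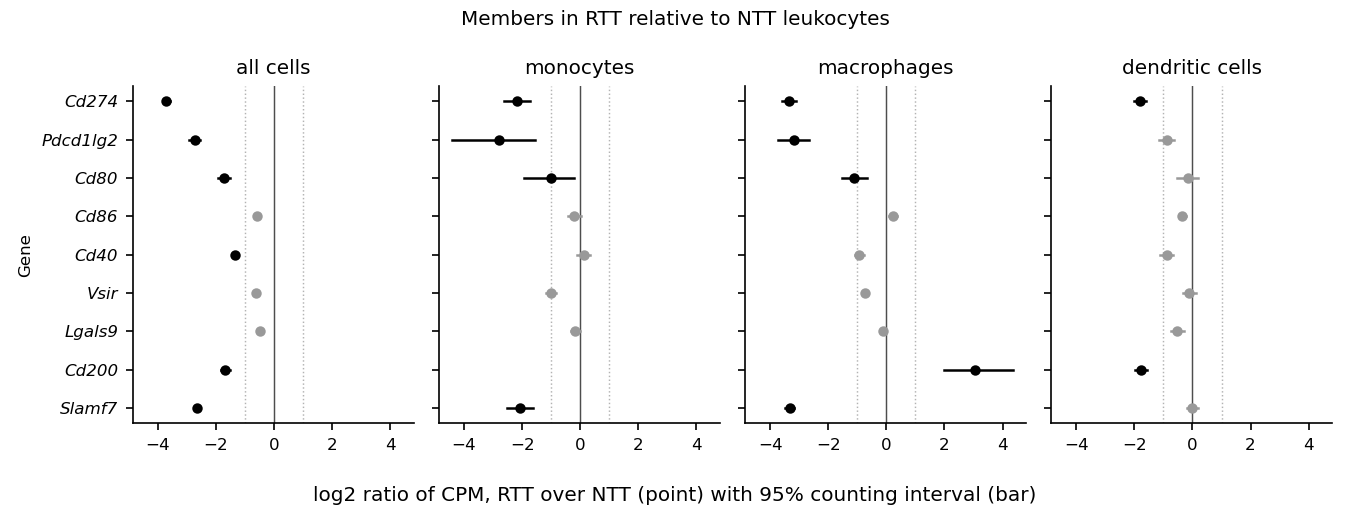
Log2 ratio of CPM, RTT over NTT (points), with 95% counting intervals (bars), for each member over all cells and within 3 classes. Black marks members that differed by at least 2-fold with at least 100 UMIs; the dotted lines are 2-fold, and Cd200 is not drawn for monocytes, where the RTT library had 0 UMIs. Over all cells every point lies left of 0, while among macrophages Cd200 lies to the right at 3.04.

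The 250 bases before the start sites of the 3 members with the lowest ratios are shown, because these genes differed most in the same direction. Sequences are from RefSeq on GRCm38.p6 (the mm10 build), 5′ to 3′ on the gene's strand, with matches to AANNGAAA on either strand, the core letters of sites for interferon regulatory factors, in capitals. By the GENCODE M21 annotation Cd274 lies on chr19:29367455-29388095 (+ strand), Pdcd1lg2 beside it on chr19:29410919-29471161 (+ strand), and Slamf7 on chr1:171632403-171653035 (- strand). The printed stretches end just before the RefSeq start sites, which are not all at the GENCODE gene bounds, and lie at chr19:29367188-29367437, chr19:29410669-29410918 and chr1:171649000-171649249.
Cd274: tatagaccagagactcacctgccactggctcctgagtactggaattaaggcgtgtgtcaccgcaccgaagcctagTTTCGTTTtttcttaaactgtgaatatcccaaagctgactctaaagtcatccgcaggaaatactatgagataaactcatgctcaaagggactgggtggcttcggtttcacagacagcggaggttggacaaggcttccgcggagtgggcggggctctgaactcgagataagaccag
Pdcd1lg2: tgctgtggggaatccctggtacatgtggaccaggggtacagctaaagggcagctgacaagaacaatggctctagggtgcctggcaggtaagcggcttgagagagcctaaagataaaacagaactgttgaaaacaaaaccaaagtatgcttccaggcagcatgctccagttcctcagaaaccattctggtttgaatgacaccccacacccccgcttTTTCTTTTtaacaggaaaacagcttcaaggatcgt
Slamf7: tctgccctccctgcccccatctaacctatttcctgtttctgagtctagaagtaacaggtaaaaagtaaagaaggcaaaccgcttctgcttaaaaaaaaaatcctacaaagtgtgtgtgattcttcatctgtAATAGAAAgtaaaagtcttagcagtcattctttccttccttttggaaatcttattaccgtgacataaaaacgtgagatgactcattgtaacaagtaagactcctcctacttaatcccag
The match began 175 bases before the start site in Cd274, 35 before it in Pdcd1lg2 and 119 before it in Slamf7. RefSeq windows from 250 bases before to 50 after the start were at hand for 7 of the 9 members (Cd86 and Cd40 had none), and 6 of the 7 held AANNGAAA (Vsir did not), as did 23.9% of all 32851 windows. The motif was searched on both strands, and a match of letters is a description of the sequence, not a bound site.

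Sums over all cells mix the level within a population with the population's share of the library. In the NTT library monocytes held 43.8% of all UMIs and macrophages 30.4%, and in the RTT library 2.54% and 88.1%. The CPM difference was split into a part from the shares of the named populations and a part from levels within them, with the levels of both libraries averaged. A population absent from a library, such as NTT Ctsk_Macro, was given the other library's level, and the NTT level of TAM_C1q rested on 17 cells. The part from shares was 96.2% for Cd86, 97.8% for Cd40 and 92.6% for Lgals9. For Cd40 the small part within populations is a net value, since log2 ratios ran in both directions (0.82 in DC3 and -1.45 in cDC2 cells). For Cd274 the CPM difference of -151 split into -69.7 from shares and -81.2 from lower levels within populations. Slamf7 (51.4% from shares), Pdcd1lg2 (45.1%) and Cd80 (60.3%) were likewise split, and Cd200 stood at 81.5%. Vsir went the other way, since the shares of RTT populations alone would have raised it by 52.2 CPM and lower levels within populations took -185 CPM. With the levels of only 1 library in place of the average, the part from shares ran from 21.7% to 70.6% for Cd274 and from 47.5% to 138% for Lgals9. With classes in place of the named populations the part from shares was lower for several members: 61.8% for Cd40, 65.0% for Lgals9, 46.9% for Cd200, 33.2% for Cd274, 20.3% for Slamf7 and 89.9% for Cd86, and it was -26.1% for Vsir, next to -39.4% by population.

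**Figure D3:**
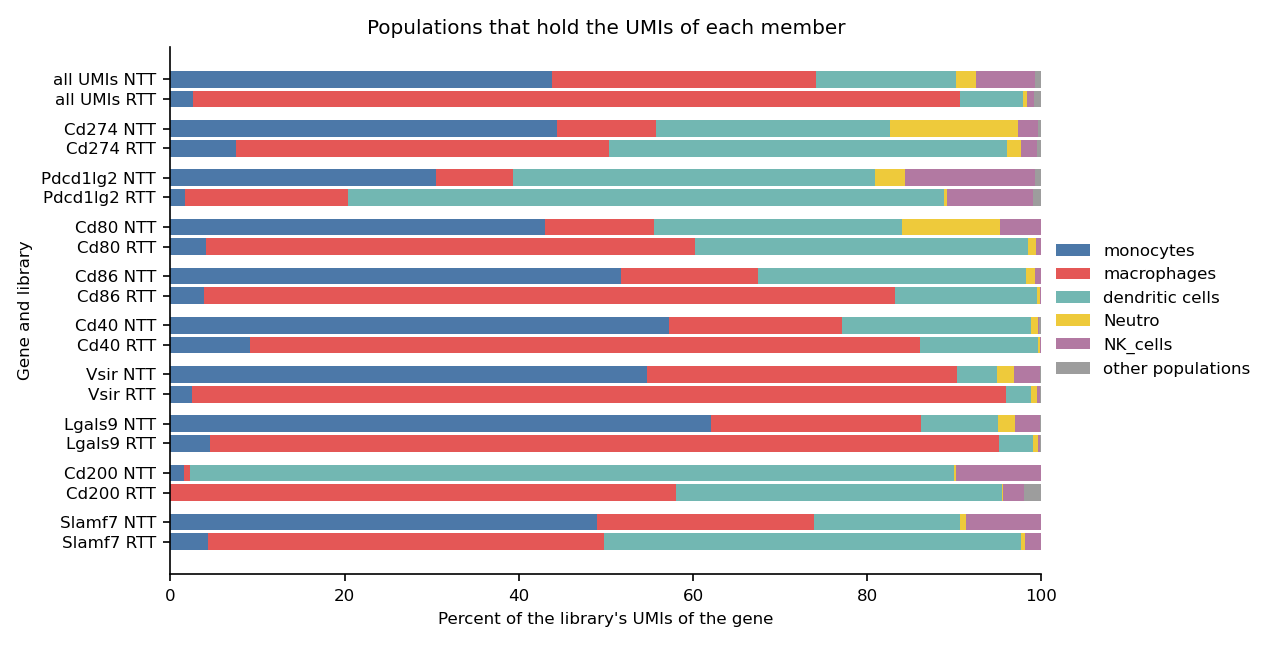
Percent of each member's UMIs (horizontal axis) found in each class or population (colours), by gene and library, with the split of all UMIs in the top pair of bars. Dendritic cells held 7.28% of all RTT UMIs but 68.4% of the RTT UMIs of Pdcd1lg2, 47.9% of those of Slamf7 and 45.7% of those of Cd274.

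Dendritic cells thus carried a large part of the Cd274, Pdcd1lg2 and Slamf7 UMIs that remained in the RTT tumour. They held 26.8% of NTT and 45.7% of RTT UMIs of Cd274, and 41.6% and 68.4% of those of Pdcd1lg2. Macrophages, with 88.1% of all RTT UMIs, held most RTT UMIs of the other members, from 56.2% for Cd80 to 93.5% for Vsir. Monocytes, with 43.8% of all NTT and 2.54% of all RTT UMIs, carried 44.4% of NTT and 7.50% of RTT Cd274. Neutrophils, with 2.31% of all NTT UMIs, held 14.7% of NTT Cd274 and 11.3% of NTT Cd80.

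Within classes Cd274 was at least 2-fold lower in each of the 3, Slamf7 and Pdcd1lg2 in monocytes and macrophages, and Cd86 in none. Among monocytes 4 of 9 members were lower (Cd274, Pdcd1lg2, Cd80 and Slamf7) and 0 higher, where 7.28% of 6938 genes were lower and 3.89% higher. Among macrophages 4 were lower (the same genes) and 1 was higher (Cd200), against 6.96% and 5.28% of 9608 genes. Among dendritic cells 2 were lower (Cd274 and Cd200) and 0 higher, against 7.8% and 6.14% of 6271 genes. The members' median log2 ratio was -0.93 in macrophages and -0.52 in dendritic cells, against 0.05 over all genes tested in both.

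In macrophages Cd274 went from 61.5 CPM in NTT to 6.09 CPM in RTT tumours, a log2 ratio of -3.34 (interval -3.58 to -3.10). Slamf7 went from 127 to 12.6 CPM (-3.33, -3.49 to -3.16), and Pdcd1lg2 from 12.7 to 1.40 CPM (-3.19, -3.72 to -2.67). Cd86 lay slightly above its NTT level, at 92.1 CPM in NTT and 107 CPM in RTT macrophages (0.22, 0.09 to 0.35). Cd80 had a log2 ratio of -1.11 (-1.54 to -0.65), Cd40 of -0.93, Vsir of -0.75 and Lgals9 of -0.13. The class lay in different populations in the libraries: TAM_C1q had 17 NTT and 2001 RTT cells, TAM_H2Ab1 169 and 36, and TAM_Spp1 193 and 719. Within TAM_Spp1 the log2 ratio was -1.81 for Cd274 and -1.29 for Slamf7 (23 and 40 UMIs), and within TAM_cycling -3.52 and -3.64. Cd200 rested on 7 NTT and 380 RTT UMIs in macrophages, 371 of the latter in Ctsk_Macro cells, a population that the NTT library did not have. Its log2 ratio of 3.04 became 1.35 when each cell counted alike.

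In monocytes Cd274 had 166 CPM in the NTT and 37.1 CPM in the RTT tumour, a log2 ratio of -2.16 (-2.64 to -1.72). Slamf7 was at 173 and 41.5 CPM (-2.06, -2.51 to -1.64). Pdcd1lg2 had 262 NTT and 5 RTT UMIs (-2.79, -4.42 to -1.55), and Cd80 lay at the 2-fold line with 198 and 13 UMIs (-1.01, -1.94 to -0.20). Vsir was just short of it at -0.99 (-1.18 to -0.82). Cd86, Cd40 and Lgals9 lay close to their NTT levels, with Cd86 at 210.3 and 184 CPM (-0.20), Cd40 at 149.6 and 163 CPM (0.13) and Lgals9 at 361 and 321 CPM (-0.17). Of the Infl_Mono cells 47.9% of 94 in RTT and 23.4% of 620 in NTT tumours held the macrophage gene C1qa at 1000 CPM or more, and of the Monocyte_1 cells 44.4% and 59.5%. When such cells were left out, the monocyte log2 ratio was -2.48 for Cd274, -2.15 for Slamf7, -2.08 for Pdcd1lg2 (41 and 1 UMIs), -0.27 for Cd80 and -0.80 for Cd40, and 2 members counted as lower. After each cell was thinned to 2000 UMIs, 2 members counted as lower in monocytes and 2 in macrophages, where Pdcd1lg2 and Cd80 no longer reached the minimum of UMIs.

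Populations of the same name were then compared. Cd274 was lower in each of the 8 populations, with intervals that all ended below 0, and at least 2-fold lower with enough UMIs in Infl_Mono, Monocyte_1, TAM_Spp1 and cDC2 cells. The share of all genes lower in every population was not counted. The Infl_Mono level was 174 CPM in NTT and 32.3 CPM in RTT tumours (-2.43, -3.17 to -1.77). Monocyte_1 had 160.4 and 43.8 CPM (-1.87, -2.54 to -1.28), TAM_Spp1 78.8 and 22.5 CPM (-1.81, -2.25 to -1.37), and cDC2 158 and 52.4 CPM (-1.60, -1.90 to -1.29). DC3 differed least, with 691 and 420.3 CPM (-0.72, -1.02 to -0.43). The log2 ratio was -3.52 in TAM_cycling (59 and 33 UMIs) and -3.24 in cDC1 cells (45 and 3 UMIs, -5.57 to -1.60). In NK_cells it was -1.08 (76 and 10 UMIs, -2.20 to -0.12). Each of these values was under the minimum of UMIs.

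**Figure D4:**
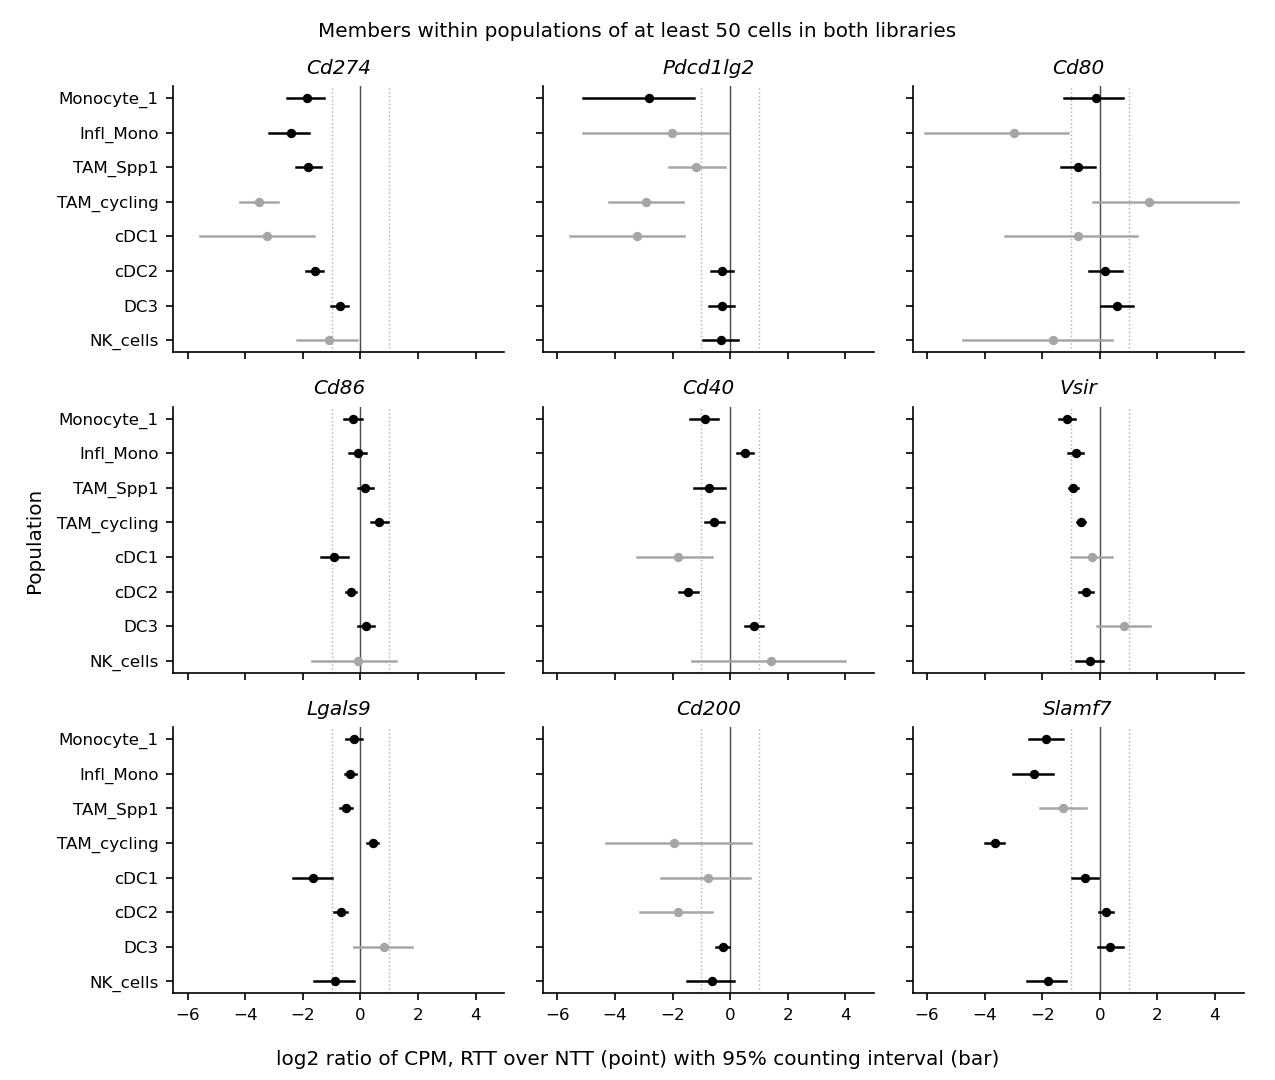
Log2 ratio of CPM, RTT over NTT (horizontal axis), with 95% counting intervals for each member (panels) in the 8 populations with at least 50 cells in both libraries (vertical axis); grey marks values from fewer than 100 UMIs and dotted lines 2-fold. Cd274 lies left of 0 in every population, and Cd40 lies on both sides, at 0.82 in DC3 and -1.45 in cDC2 cells.

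Pdcd1lg2 divided the populations. It was 2-fold lower with enough UMIs in Monocyte_1 alone, where the RTT value rested on 3 UMIs against 219 (-2.82, -5.11 to -1.26), and those 3 UMIs were gone once C1qa-carrying cells were left out. In DC3, cDC2 and NK_cells, where the RTT level was highest, the log2 ratios were -0.28, -0.29 and -0.31, each with an interval that held 0. These intervals reached from -0.73 to 0.14 in DC3 and from -0.65 to 0.09 in cDC2 cells. The DC3 value leans on single cells, which the interval leaves out. A single cell held 30.5% of the 59 RTT UMIs of Pdcd1lg2 in DC3, and another 15% of the 200 NTT UMIs. In cDC1 cells, at 68.8 CPM in the NTT tumour, 45 NTT and 3 RTT UMIs gave -3.24 (-5.57 to -1.60). TAM_cycling (-2.92), Infl_Mono (-2.01) and TAM_Spp1 (-1.18) also had intervals below 0. All 4 of these values came from fewer than 100 UMIs.

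Slamf7 was lower in the monocyte and macrophage populations and in NK_cells, and not in cDC2 cells or DC3. TAM_cycling went from 120.1 CPM in NTT to 9.60 CPM in RTT tumours (-3.64, -3.98 to -3.32), Infl_Mono from 164 to 34.0 CPM (-2.28, -3.00 to -1.63), Monocyte_1 from 179 to 49.5 CPM (-1.85, -2.47 to -1.29) and NK_cells from 199 to 57.0 CPM (-1.80, -2.52 to -1.16). In cDC2 cells the log2 ratio was 0.23 (-0.01 to 0.47), in DC3 0.36 (-0.08 to 0.79) and in cDC1 cells -0.50 (-0.96 to -0.06). The RTT NK_cells held macrophage markers at a summed 3241 CPM against 342 CPM in the NTT tumour; their part in the result was not tested, and the log2 ratio without C1qa-carrying cells was -1.93.

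Cd40 was higher in RTT than in NTT cells of some populations and lower in others. DC3 went from 292 CPM in NTT to 516 CPM in RTT tumours (0.82, 0.51 to 1.13), and the value was 1.06 without C1qa-carrying cells. RTT DC3 held macrophage markers at a summed 4754 CPM against 782 CPM in NTT DC3. Infl_Mono had 173 and 248 CPM (0.52, 0.25 to 0.79), but without the C1qa-carrying cells the log2 ratio was -0.48, from 308 and 18 UMIs. For Cd274 and Slamf7 the same step moved Infl_Mono from -2.43 to -3.64 and from -2.28 to -3.32, on 2 RTT UMIs each. cDC2 cells had Cd40 at 129.6 CPM in NTT and 47.3 CPM in RTT tumours (-1.45, -1.79 to -1.13), and Monocyte_1 and TAM_Spp1 were lower too (-0.88 and -0.73).

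Cd86, which binds the same receptors as Cd80, had log2 ratios between -0.33 and 0.20 in 6 of the 8 populations. The exceptions were TAM_cycling, at 59.0 CPM in NTT and 93.0 CPM in RTT tumours (0.66, 0.38 to 0.95), and cDC1, at 235 and 126 CPM (-0.90, -1.39 to -0.44). Cd80 in DC3 was at 100.2 and 152 CPM (0.60, 0.03 to 1.15), and in cDC2 cells its log2 ratio was 0.19 (-0.37 to 0.76). Cd80 was lower in TAM_Spp1 cells (-0.77, -1.33 to -0.18) and in Infl_Mono, where 85 NTT and 2 RTT UMIs gave -2.99 (-6.06 to -1.10).

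Vsir was lower in the monocyte and macrophage populations, which had most of it, with intervals below 0. The log2 ratio was -1.14 in Monocyte_1 (499 and 226 CPM), -0.91 in TAM_Spp1 (561 and 298 CPM), -0.83 in Infl_Mono (454 and 255 CPM) and -0.65 in TAM_cycling (352 and 224 CPM). Lgals9 was closer to its NTT level, at -0.35 in Infl_Mono and -0.22 in Monocyte_1, and it was 0.42 in TAM_cycling (124 and 166 CPM) and -1.63 in cDC1 cells (173 and 55.7 CPM). Lgals9, Cd40, Cd80 and Cd86, 4 of the 9 members, had populations with intervals on both sides of 0, as did 14.4% of 10258 genes. Cd200 in DC3, its main population, differed by only -0.26 (-0.48 to -0.05) and by -0.04 without C1qa-carrying cells, so the lower class value of dendritic cells (-1.76) went with fewer DC3 cells, 135 of 492 NTT and 57 of 526 RTT dendritic cells.

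The share of cells with a UMI was read after each cell had been thinned to 2000 UMIs, because RTT cells were deeper (median 8336 against 5398 UMIs). Cd274 was found in 22.6% of NTT (21.1 to 24.2) and 3.01% of RTT cells (2.55 to 3.54), compared with 42.1% and 6.94% before thinning. Slamf7 was found in 21.0% and 4.69%, and Pdcd1lg2 in 6.62% and 1.82%. Cd86 was found in 28.8% and 21.8% of cells. NK_cells were taken as the background for this gene, although they were not shown to lack it. It was found in 3.66% of NTT NK_cells (median depth 5358.5 UMIs before thinning) and in 3 of 41 RTT NK_cells (median 3967 UMIs). Before thinning Cd86 was found in 52.8% and 53.3% of all cells. In DC3 a UMI of Cd274 was present in 67.2% of NTT and 61.5% of RTT cells, and a UMI of Cd200 in 64.1% and 71.2%. In TAM_Spp1 cells, whose depth was like that of DC3 (medians of 4949 UMIs in NTT and 5351 in RTT tumours, against 5289 and 4351), Cd274 was found in 9.95% and 3.98% of cells. Cd200 was found there in 0 of 191 NTT and 0 of 703 RTT cells, which allows shares of up to 1.57% and 0.427%. No population was taken to lack Cd274, Pdcd1lg2 or Slamf7, so their shares have no background. Pdcd1lg2 was found in 34.4% of NTT and 25.0% of RTT DC3 cells.

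Inhibitory and costimulatory ligands were then set against each other in the same cells. In macrophages 10.8% of NTT (8.35 to 13.6) and 1.83% of RTT cells (1.44 to 2.30) had a UMI of Cd274 or Pdcd1lg2, while 20.5% and 20.2% had a UMI of Cd80 or Cd86. In monocytes the PD-1 ligands were found in 25.5% and 6.12% of cells and the B7 ligands in 34.7% and 34.7%. Cells with both kinds made up 47.7% of NTT and 44.2% of RTT DC3, against 0.53% of RTT macrophages. The number of Cd274 UMIs per Cd86 UMI, which does not depend on how libraries are scaled, was 0.67 in NTT and 0.06 in RTT macrophages, a log2 change of -3.56 (-3.82 to -3.29). It changed by -1.96 (-2.45 to -1.47) in monocytes, -1.45 (-1.69 to -1.21) in dendritic cells and -0.91 (-1.31 to -0.51) in DC3. For Cd40 per Cd86 the change was -1.15 (-1.34 to -0.95) in macrophages, 0.32 (0.02 to 0.63) in monocytes and 0.63 (0.22 to 1.03) in DC3. The monocyte value includes C1qa-carrying cells, without which Cd40 itself was lower in RTT monocytes.

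Members were also read along a list of 34 genes of the interferon-gamma response (33 in the matrix), none of them a member. Cells of each class and library were ranked by the summed CPM of the list and cut into 3 equal parts. Each class holds several populations, so parts can differ in their populations as well as in the levels within them. Between the low and the high part, Cd274, Cd40, Lgals9, Pdcd1lg2, Cd86 and Slamf7 were higher in NTT monocytes with intervals above 0, and Vsir was lower. These are 6 and 1 of the 8 members with at least 100 UMIs over both parts, where 15% of 5617 other genes were higher and 31.7% lower by the same rule. The counts were 4 and 0 of 6 members in NTT macrophages (11.8% and 17.8% of genes), 2 and 0 of 4 in RTT monocytes (20.7% and 19.1%), 5 and 1 of 8 in RTT macrophages (17.8% and 28.6%), 6 and 1 of 8 in NTT dendritic cells (16.9% and 21.7%) and 5 and 1 of 8 in RTT dendritic cells (17.7% and 18%). Cd274 was at 83.8 CPM in the low, 148 CPM in the middle and 265 CPM in the high part (log2 change 1.66, 1.45 to 1.88), and Cd40 at 76.0, 124 and 249 CPM (1.71, 1.49 to 1.94). Vsir was at 515, 539 and 390.4 CPM (-0.40, -0.51 to -0.29). In RTT macrophages Vsir was instead higher in the high part (0.24, 0.17 to 0.31), and in NTT macrophages its interval held 0. The 1 member lower in RTT macrophages was Cd200 (-3.24, -3.81 to -2.72). The low part held 343 of its 380 UMIs there, and nearly all UMIs of Cd200 in RTT macrophages lay in Ctsk_Macro cells, as given above.

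**Figure D5:**
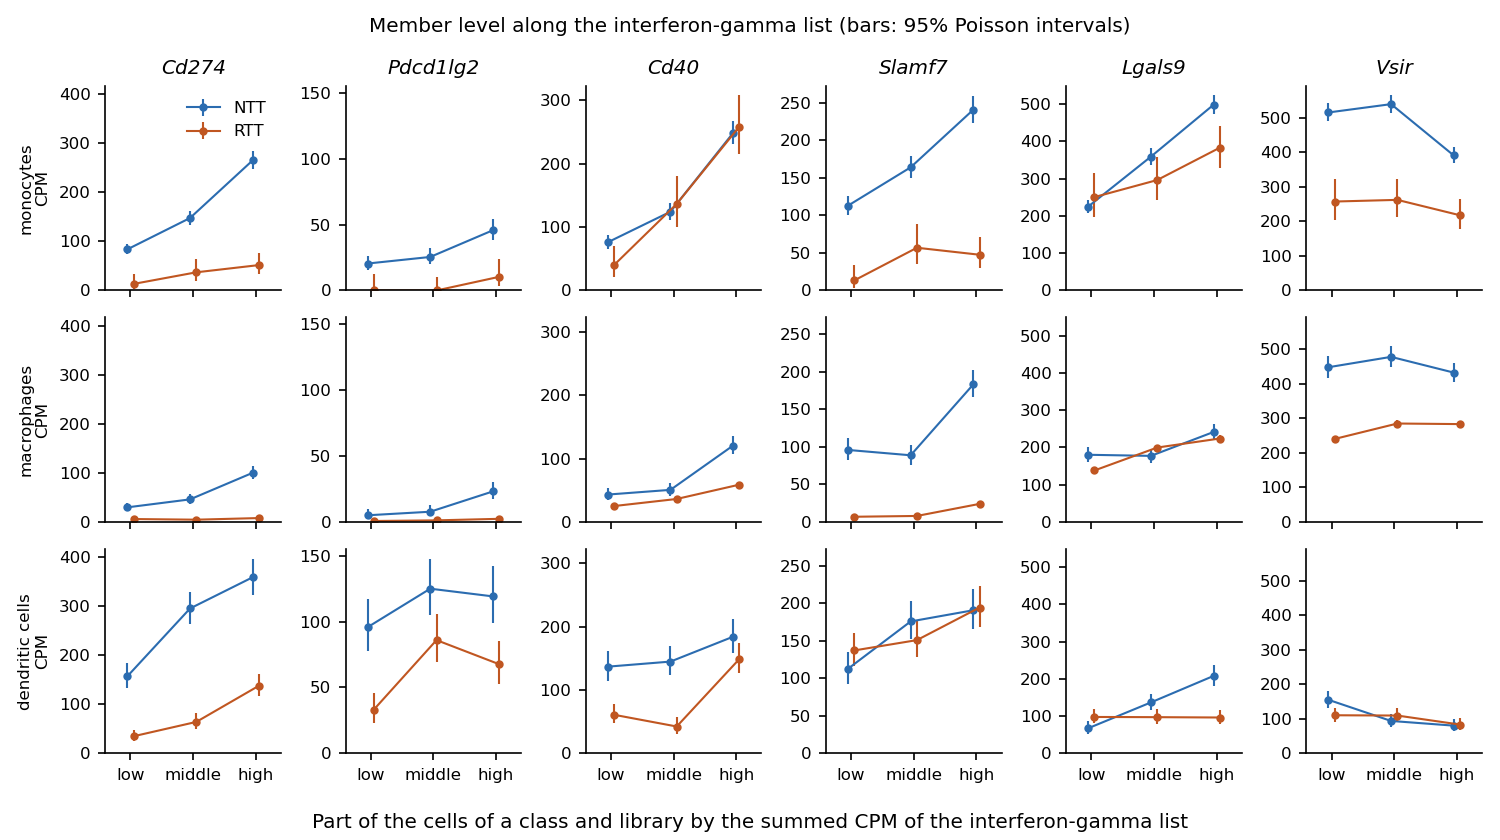
CPM (vertical axis) of 6 members (columns of panels) in 3 equal parts of the cells of a class and library, ranked by the summed CPM of the interferon-gamma list (horizontal axis), in NTT (blue) and RTT (orange) cells; bars are 95% Poisson intervals and rows are classes. NTT Cd274 climbs from 83.8 to 265 CPM in monocytes, while RTT macrophages stay at or below 7.92 CPM.

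Among RTT macrophages Cd274 differed little along the list, with 5.91 CPM in the low and 7.92 CPM in the high part (0.42, -0.02 to 0.87), where NTT macrophages had 29.8 and 100.2 CPM (1.75, 1.31 to 2.21). The parts did not cover the same range of the list. Its median was 3835 CPM in the high part of RTT macrophages. In the middle and high parts of NTT macrophages it was 4499 and 7020 CPM. Slamf7 in RTT macrophages was at 6.92 and 24.1 CPM (1.80, 1.46 to 2.15), and Cd40 at 25.1 and 58.9 CPM (1.23, 1.04 to 1.42). In RTT monocytes Cd40 reached 259 CPM in the high part, next to 249 CPM in NTT monocytes, whereas Cd274 reached 51.8 CPM next to 265 CPM. Of the 185 Cd40 UMIs of RTT monocytes, 146 lay in Infl_Mono, where 47.9% of cells carried C1qa. Without such cells Cd40 was lower in RTT than in NTT monocytes, as given above, and the parts were not read without them. The list itself stood lower in RTT monocytes, with a median of 12515 CPM in their high part against 16166 CPM in that of NTT monocytes, and RTT monocytes of the high part were deeper than those of the low part (medians of 6515 and 3863 UMIs). In dendritic cells Cd274 had log2 changes of 1.19 in NTT and 1.98 in RTT tumours and Vsir -0.95 and -0.40. Cd200, which was highest in DC3, was at 34.1 CPM in the low and 158 CPM in the high part of RTT dendritic cells. How much of these changes went with the populations in each part was not tested.

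Over the 21 sums of a population and library with at least 50 cells, the gene whose log2(CPM + 10) was most like that of Cd274 was Irf1 (Pearson r = 0.93), an interferon-induced transcription factor, followed by Nfkbie (0.89) and Birc3 (0.88). Among the members, Cd274 was most like Cd80 (0.87) and Pdcd1lg2 (0.75), Cd86 like Cd40 (0.79), and Vsir like Lgals9 (0.75), while Cd200 ran against Lgals9 (-0.76) and Vsir (-0.75). The leading genes for the others were Stat4 for Pdcd1lg2 (0.91), Nfkbie for Cd80 (0.91), Tspo for Cd86 (0.91), Epsti1 for Cd40 (0.83), Slc43a2 for Vsir (0.95), Lamp2 for Lgals9 (0.90), Scin for Cd200 (0.97) and Psmb9 for Slamf7 (0.89). These points share 2 libraries and differ in depth, so the coefficients are descriptions.

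The T cell partners Pdcd1, Cd28, Ctla4 and Cd40lg had most of their UMIs in the cells named NK_cells. Pdcd1, the gene of PD-1, had 401 of its 445 NTT UMIs and 86 of its 118 RTT UMIs there, at 302 and 233 CPM. Cd28 was at 272 CPM in NTT and 122 CPM in RTT NK_cells, and Ctla4 at 439 and 282 CPM. Cd40lg had 9 NTT and 2 RTT UMIs in all, each in NK_cells. Havcr2, the gene of the galectin-9 receptor TIM-3, had its highest level in NK_cells (198 CPM in NTT and 193 CPM in RTT tumours), but only 17.3% and 3.65% of its UMIs were there. Other partners led in other cells. Cd200r1 led in TAM_cycling in NTT (92.2 CPM) and in cDC2 cells in RTT tumours (111 CPM), and Selplg, a partner of VISTA, led in DC3 (728 and 586 CPM). Sh2d1b1, an adaptor of SLAM family receptors, led in TAM_cycling in NTT (229.7 CPM) and in cDC2 cells in RTT tumours (115 CPM).

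Lists of related genes gave the setting. Over all cells, 6 of 7 tested genes of the B7 and CD28 family other than the members were lower and 0 higher, led by the T cell receptors Icos (log2 ratio -4.02), Cd28 (-3.86) and Ctla4 (-3.69). Of the TNF family genes of costimulation 8 of 10 were lower, with Tnfrsf4 at -2.78, Tnfrsf18 at -2.65 and Tnfsf4, the gene of OX40 ligand, at -2.50. The members' partners and other inhibitory pairs gave 9 of 17 lower, the SLAM family and its adaptors 4 of 10, and CD40 and NF-kB signalling 7 of 18, among them Tnfaip3 (-2.56), Traf1 (-1.57) and Map3k14 (-1.56). Of the interferon-gamma list, 26 of 33 genes were lower and 0 higher over all cells, 10 lower and 1 higher in monocytes, 22 of 32 lower in macrophages and 19 of 32 lower in dendritic cells. Its median log2 ratio was -0.56 in monocytes, -1.59 in macrophages and -1.14 in dendritic cells, next to -0.05, 0.05 and 0.05 over all genes tested. Within macrophages the CD40 and NF-kB list had 2 of 18 genes lower and a median of -0.36, and within dendritic cells 6 of 17 lower and a median of -0.81. The SLAM list instead had 1 of 6 tested genes lower and 3 higher within dendritic cells (median 0.68), and the partners 0 of 11 lower and 2 higher (median -0.23). Those higher, named after their values were seen, were Sh2d1b1 (2.54), Slamf9 (1.80) and Cd84 (1.08), and Pilra (2.91) and Cd200r1 (1.42), and the lower SLAM gene was Slamf8 (-1.14). Icos, Cd28, Ctla4, Tnfrsf4 and Tnfrsf18 had their highest levels in NK_cells, which held 6.76% of all NTT and 0.825% of all RTT UMIs. Levels within NK_cells differed too. Icos was at 540 CPM in NTT and 277 CPM in RTT NK_cells, and Cd28 and Ctla4 were also lower there. Tnfrsf4 (946 and 1112 CPM) and Tnfrsf18 (738 and 841 CPM) were higher.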

How the data were processed

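The authors aligned reads with Cell Ranger 6.1.1 to mm10, kept cells with over 1000 genes under limits on mitochondrial and ribosomal reads, dropped genes not shared by the experiments merged into their reference map, 1 of which used probes, and named populations on a batch-corrected map built with cells of another melanoma. The deposited matrix holds raw UMI counts, and 88 NTT and 47 RTT cells have 1000 or fewer of its genes. Populations were merged into monocytes (Monocyte_1, Monocyte_3, Infl_Mono), macrophages (TAM_C1q, TAM_H2Ab1, TAM_Spp1, TAM_cycling, Ctsk_Macro, Macro) and dendritic cells (cDC1, cDC2, DC3). No doublet caller was run.

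UMIs were summed and scaled to CPM in Python 3.11.15 (numpy 2.4.6, scipy 1.17.1, pandas 2.3.3, matplotlib 3.10.9). CPM carried exact Poisson, ratios exact binomial and shares Clopper-Pearson 95% intervals. Ratios of UMIs of a pair of genes carried normal intervals on the log scale. Cells are not replicates, so no p-value was computed. TMM factors of edgeR 4.0.16 and size factors of DESeq2 1.42.0 (R 4.3.3) were used only as other scalings. The ratio step was tested on simulated data.

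The members and lists were chosen with earlier results of these data known. Of each list, the genes named have the largest ratios over all cells among those with at least 200 UMIs; likeness was ranked over genes with at least 500 UMIs. Positions are from GENCODE M21. Other motifs searched are not reported here. The submitters' record gives day 12, and the methods name another day for tumours taken for single-cell sequencing.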

Additional observations from a re-analysis of the deposited data

Results flagged for a closer look

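For 4 of the 9 members, populations of the same libraries differed in opposite directions between RTT and NTT tumours, with counting intervals on opposite sides of 0, as they did for 14.4% of 10258 genes. Cd80 had a log2 ratio of RTT over NTT of 0.60 in DC3 and -2.99 in Infl_Mono, the latter from 85 NTT and 2 RTT UMIs. Cd86 had a log2 ratio of 0.66 in TAM_cycling and -0.90 in cDC1 cells. Cd40 had a log2 ratio of 0.82 in DC3 and -1.82 in cDC1 cells, the latter from 39 NTT and 7 RTT UMIs. Lgals9 had a log2 ratio of 0.42 in TAM_cycling and -1.63 in cDC1 cells. With 1 library in each group the difference between populations was not tested in any of the 4 cases.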

How the results depend on the processing

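Over all cells the number of members lower in RTT tumours was 6 or 7 and the number higher was 0 under every alternative run: TMM or DESeq2 scaling, the mean of per-cell CPM, cells with at least 1500 genes, without the 5% of cells with most UMIs, without C1qa-carrying cells, thinning, no minimum or 500 UMIs, a fold of 1.5, and, added after the data were seen, without the 7 shared barcodes. In monocytes, 4 lower members became 2 without non-macrophage cells with C1qa at 1000 CPM or more, 2 when thinned to 2000 UMIs and 2 with a minimum of 500 UMIs; Cd80, at the line, missed it under TMM (-0.99), DESeq2 scaling (-0.96), the mean of per-cell CPM (-0.49), without the 5% of cells with most UMIs (-0.97) and without shared barcodes. In macrophages 4 became 2 when thinned to 2000 UMIs and 2 with a minimum of 500 UMIs. At a fold of 1.5, 2 became 4 in dendritic cells, 4 became 6 in macrophages and 4 became 5 in monocytes. No called ratio turned its sign. Of the other values recomputed, 465 stayed within their interval (within 10 points for the part from shares) and 115 left it. Cd274 over all cells had a log2 ratio of -3.12 when thinned, and Cd200 in macrophages 1.35 with the mean of per-cell CPM. TMM and DESeq2 scaling moved ratios by less than 0.1 on the log2 scale. No paired analysis was possible because each group has 1 sample. Depth limits members with few RTT UMIs, such as Pdcd1lg2 and Cd80 in monocytes and Cd274 in cDC1 cells, and leaves no comparison for RTT neutrophils.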

Other observations

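The mature dendritic cell list held genes that differed in opposite directions. Over all cells 10 of its 16 genes were lower and 2 higher in the RTT library. Ccr7 was at 121 CPM in the NTT sum and 18.2 CPM in the RTT sum (log2 ratio -2.73), and Cacnb3 at 23.1 and 4.00 CPM (-2.53), while in DC3 themselves Ccr7 was at 2730 and 2462 CPM and Cacnb3 at 511 and 523 CPM. Ccl17, the gene of a chemokine that attracts T cells carrying CCR4, was higher in the RTT library, at 2.90 and 17.5 CPM (log2 ratio 2.59, interval 2.20 to 3.01). Its level in DC3 was 38.0 CPM in NTT and 614.5 CPM in RTT tumours, next to Cd40 at 292 and 516 CPM and Cd274 at 691 and 420.3 CPM in the same cells. The difference was not confined to DC3. Over all dendritic cells Ccl17 was at 15.6 and 219 CPM, from 49 and 714 UMIs, and macrophages had 0 NTT and 66 RTT UMIs. No test of these differences was possible with 1 library in each group.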
